A study of Homo sapiens with 6 samples.

Results

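The genes described here are those of endocan (ESM1), of 4 ligands of the vascular endothelial growth factor (VEGF) family (VEGFA, VEGFB, VEGFC and PGF), of angiopoietin-1 (ANGPT1), of the neuropilin coreceptors (NRP1 and NRP2) and of endothelin-1 (EDN1). They are 9 of the 56303 genes in a count table of T24 cells. The 9 genes were chosen by their role in blood vessel biology with the difference between siFBXL6 and siNC already known, so they were selected on the contrast that is described. Their values are therefore given as a description, and no call or error printed for them is a test of a finding. All 9 passed the filter on low counts, and all 9 were among the genes called at an adjusted p below 0.05 in edgeR's quasi-likelihood test, beside 40.2% of the 21298 genes tested. Of the 9, 5 were higher in the libraries labelled siFBXL6, beside 20.5% of the genes tested, and 4 were lower, beside 19.8%. Nothing is read from these counts, because the same contrast chose the genes.

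T24 is an established human cell line that was derived from a carcinoma of the bladder. The cells carried the genotype label WT and received siNC, a control siRNA, or carried the label of an FBXL6 knockdown and received siFBXL6, an siRNA against the F-box gene FBXL6. RNA was taken 48 h after transfection from 3 samples of each group, 2 μg of RNA went into each library, and all 6 libraries share 1 batch label. Which of the siRNAs against FBXL6 went into which library is not given in the sources used here. The study's methods number these siRNAs in the same style as the library labels, and the numbers in the labels were read here as replicates. Although the methods speak of independent replicates for quantitative data in general, nothing says whether the samples of a group came from separate cultures. The p-values thus set the difference between the groups only against the spread between these samples, which may be technical.

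VEGF ligands bind receptor tyrosine kinases on endothelial cells and drive the growth of blood and lymph vessels, and the neuropilins are coreceptors that hold VEGF as well as class 3 semaphorins. Angiopoietin-1 is the activating ligand of the receptor TEK, also called TIE2, and steadies mature vessels, while endothelin-1 is a small peptide that narrows vessels. Endocan is a dermatan sulfate proteoglycan best known as a secreted product of activated endothelium, and carcinoma cells are known to make several of these factors themselves.

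FBXL6, the target of the siRNA, was counted first in each library as a check of the labels. Its level was 6.19, 6.70 and 6.93 CPM (counts per 1000000 counts of the library, normalized by TMM factors) in the siNC libraries and 6.58, 5.70 and 5.81 CPM in the siFBXL6 libraries. The groups overlapped, the log2 fold change was -0.13 (SE 0.088), and the exact two-sided permutation p was 0.2, where 3 samples against 3 can give no p below 0.1. The count of FBXL6 thus did not set the labels apart, and every direction given here is between libraries named by their labels. ACTB, the gene of beta-actin, stood at 1168 ± 24.5 CPM under siNC and 1168 ± 25.8 CPM under siFBXL6 (SD, n = 3 each).

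The siNC libraries held 58646515, 60967902 and 56814946 counts and the siFBXL6 libraries 60968158, 60898556 and 60754015. The table itself shows how reads were counted. Of 197 genes of at least 100 bases that lay wholly inside the exons of 1 other gene on the same strand with at least 1000 counts, 96.4% had a count, and of 370 such genes on the opposite strand 98.4% did. Their median counts per base were 0.675 and 0.653 times those of the gene around them. A read was therefore counted for every gene whose exons it met, on either strand. Among values from 1 to 10 in the table, 73.1% were even, as when both mates of a read pair are counted. FBXL6 shares 31.7% of its exon bases with SLC52A2 on the opposite strand, which had 548, 622 and 607 counts under siNC and 697, 664 and 653 under siFBXL6, and reads of these bases cannot be told apart. It shares 5.3% with GS1-393G12.13 on the same strand. The ratio of the FBXL6 count to the SLC52A2 count was 0.661, 0.666 and 0.656 under siNC and 0.571, 0.518 and 0.536 under siFBXL6, without overlap. Both counts enter this ratio, so it does not measure FBXL6 alone. The shared part was 4.87% for NRP1, 1.63% for ESM1, 1.3% for VEGFA and 1.06% for NRP2, and 0% for the other members. These are shares of bases and not of counts. VEGFA had only 3.92 to 4.11 times the counts of the antisense gene RP1-261G23.7, which lies wholly within a VEGFA exon.

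The cells had the transcripts of an epithelium. The 9 epithelial markers examined summed to 3872, 3742 and 3855 CPM in the siNC libraries and to 3411, 3392 and 3405 CPM in the siFBXL6 libraries, with the keratin KRT7 the most abundant at 1038 and 983 CPM on average. Of the 9, 7 were called (77.8%, beside 40.2% of all genes tested), 6 lower and 1 higher. Their log2 fold changes ran from -0.53 (SE 0.068) for GATA3 to 0.16 (SE 0.031) for CDH1, the gene called higher. KRT18 and UPK2 were not called. The 6 fibroblast markers summed to 39.9, 41.1 and 39.2 CPM under siNC and to 37.0, 36.4 and 35.1 CPM under siFBXL6. Most of it came from COL1A1 (log2 fold change -0.15, SE 0.042), the only 1 of the 6 that was called (16.7%, beside 40.2% of all genes tested). Of 5 leukocyte markers, CD3E and CD79A had at most 4 counts a library and were not tested. Of 3 that were tested, 1 was called (33.3%, beside 40.2% of all genes tested), and it was higher. This was CD68, a lysosomal protein of macrophages, the most abundant at 6.70 CPM under siNC and 18.8 CPM under siFBXL6 (log2 fold change 1.49, SE 0.066). PTPRC went from 26, 43 and 22 counts to 26, 20 and 14 (log2 fold change -0.62, SE 0.35) and was not called. CD14 had 18 to 47 counts a library (log2 fold change 0.06, SE 0.31) and was not called either.

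ESM1, the endocan gene, went from the edge of detection to a low but clear level. It lies on the minus strand at chr5:54977864-55022671 (GRCh38), where the annotation in the table gives 5 exon blocks with 2695 bases. The siNC libraries held 21, 29 and 16 counts of it, or 0.359, 0.469 and 0.279 CPM. The siFBXL6 libraries held 219, 232 and 229 counts, or 3.62, 3.84 and 3.80 CPM. The groups were far apart, with a ratio of means of 10.2 and a log2 fold change of 3.33 (SE 0.19). In bulk RNA, more cells with the transcript and more transcript in each cell cannot be told apart. The value ranked 3 from the top among the 21298 genes tested. The spread was wider under siNC, where the coefficient of variation was 26%, than under siFBXL6, where it was 3.11%, and with so few counts under siNC the size of the ratio is known less well than its direction.

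Endocan is a product of endothelium, so the 13 endothelial markers were read beside it. Their sum was 8.43, 8.55 and 8.83 CPM in the siNC libraries and 9.31, 9.09 and 9.87 CPM in the siFBXL6 libraries. The most abundant was EGFL7, at 4.72 CPM under siNC and 4.56 CPM under siFBXL6, and 9 of the 13 stayed below 1 CPM in every library. The defining markers CLDN5 and EMCN had at most 4 counts in any library, MMRN1 at most 2 and CDH5 at most 12, and none of the 13 was at 0 in all 6 libraries. Of 8 that were tested, 2 were called (25%, beside 40.2% of all genes tested) and both were higher under siFBXL6. PECAM1, the adhesion molecule CD31, went from 25, 40 and 37 counts to 79, 65 and 108 (log2 fold change 1.28, SE 0.24), and ROBO4, a guidance receptor of endothelium, from 2, 4 and 2 counts to 15, 13 and 12 (log2 fold change 2.24, SE 0.59), where only the siFBXL6 libraries carried it past the filter on low counts. ERG had a log2 fold change of -0.44 (SE 0.32), TEK -0.41 (SE 0.50), EGFL7 -0.05 (SE 0.099), VWF -0.02 (SE 0.23), KDR 0.15 (SE 0.22) and CDH5 0.51 (SE 0.53), and none of these was called. ESAM, an adhesion molecule of endothelial junctions, did not pass the filter on low counts, and had 6, 6 and 2 counts under siNC and 10, 14 and 14 under siFBXL6, without overlap. The sums of the 13 genes did not overlap between the labels either. Without PECAM1, left out after its values were seen, the sums did overlap, at 7.90 to 8.19 CPM under siNC and up to 8.08 CPM under siFBXL6, and EGFL7 makes up most of them, so they do not show the few counts of ROBO4 and ESAM. The part of these markers in the change of ESM1 was not tested.

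The RefSeq promoter table (GRCh38.p14) held entries for 6 of the 9 genes, 9 in all: ESM1, VEGFB, VEGFC, NRP2, PGF with 2 starts and EDN1 with 3. ESM1 and EDN1 are shown because they were the only genes of these 6 whose windows held a searched motif, and they moved in opposite directions. The motifs, searched on both strands, were ACGTG, the core of the hypoxia response element (its other strand reads CACGT), the AP-1 site TGACTCA (whose other strand reads TGAGTCA), and 5 forms of the NF-kB site. Of 35116 promoter windows of the same length, 21.4% held the first, 4.95% the second and 0.567% a form of the third. Capitals mark ACGTG on either strand in the 250 bases before the start, at chr5:54985594-54985843 on the minus strand for ESM1 and at chr6:12290111-12290360 on the plus strand for EDN1.
ESM1: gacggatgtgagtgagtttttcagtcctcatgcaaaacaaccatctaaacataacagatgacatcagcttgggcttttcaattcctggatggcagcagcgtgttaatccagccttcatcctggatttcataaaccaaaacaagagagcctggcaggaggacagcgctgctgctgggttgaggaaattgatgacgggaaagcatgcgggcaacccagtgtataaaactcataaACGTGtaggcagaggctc
EDN1: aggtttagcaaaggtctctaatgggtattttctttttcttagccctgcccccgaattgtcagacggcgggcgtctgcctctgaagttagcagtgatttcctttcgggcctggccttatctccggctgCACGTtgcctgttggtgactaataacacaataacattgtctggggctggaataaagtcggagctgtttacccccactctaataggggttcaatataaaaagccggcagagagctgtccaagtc
The ESM1 start lies within the counted span given above and not at its first exon base. In ESM1 the motif began 18 bases before the start, and in EDN1, at the start nearest to the first counted exon base, 123 bases before it. Of the other EDN1 starts, 1 had the motif at 240 and 93 bases before it and 1 had none. No window of the 6 genes held the AP-1 letters or the NF-kB forms. A match is a description of these letters and not a site.

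Of the VEGF ligands, VEGFA, the main driver of vessel sprouting, was the most abundant per kb of exon and moved little. It lies at chr6:43770184-43786487 on the plus strand. Its level was 441, 427 and 422 CPM under siNC and 501, 494 and 503 CPM under siFBXL6. Every siFBXL6 library was above every siNC library, by 16.1% on average (log2 fold change 0.22, SE 0.028).

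VEGFC, the ligand best known for lymphatic vessels, lies at chr4:176683538-176792727 on the minus strand and was higher as well. It stood at 11.4, 11.5 and 12.4 CPM under siNC and at 14.2, 14.8 and 14.3 CPM under siFBXL6, without overlap (log2 fold change 0.30, SE 0.062). PGF, placental growth factor, a ligand of FLT1 alone among the receptors, lies at chr14:74941834-74955784 on the minus strand. It stood at 4.79, 4.55 and 5.54 CPM and at 5.89, 6.16 and 6.80 CPM, so that the highest siNC library came close to the lowest siFBXL6 library (log2 fold change 0.34, SE 0.095).

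VEGFB, which also binds FLT1, was the only VEGF ligand of the 4 that was lower under siFBXL6. It lies at chr11:64234538-64238793 on the plus strand. It stood at 21.9, 22.6 and 25.4 CPM in the siNC libraries and at 19.9, 21.7 and 20.6 CPM in the siFBXL6 libraries. The gap between the groups was narrow and siNC replicate 3 lay apart from the others (log2 fold change -0.17, SE 0.055). Without siNC replicate 3 the log2 fold change was -0.10 and without siFBXL6 replicate 1 it was -0.14, and in both cases VEGFB was no longer called.

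As a share of the 4 ligands, counted per kb of exon, VEGFA made up 60.8%, 59.5% and 56.5% under siNC and 63.7%, 61.7% and 63.1% under siFBXL6. VEGFB made up 28.2%, 29.4% and 31.8% under siNC and 23.7%, 25.3% and 24.1% under siFBXL6. VEGFC made up 9.39% to 9.89% under siNC and 10.7% to 11.1% under siFBXL6, and PGF 1.53% to 1.80% and then 1.81% to 2.07%. The mix of ligands was thus led by VEGFA in every library.

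**Figure D1:**
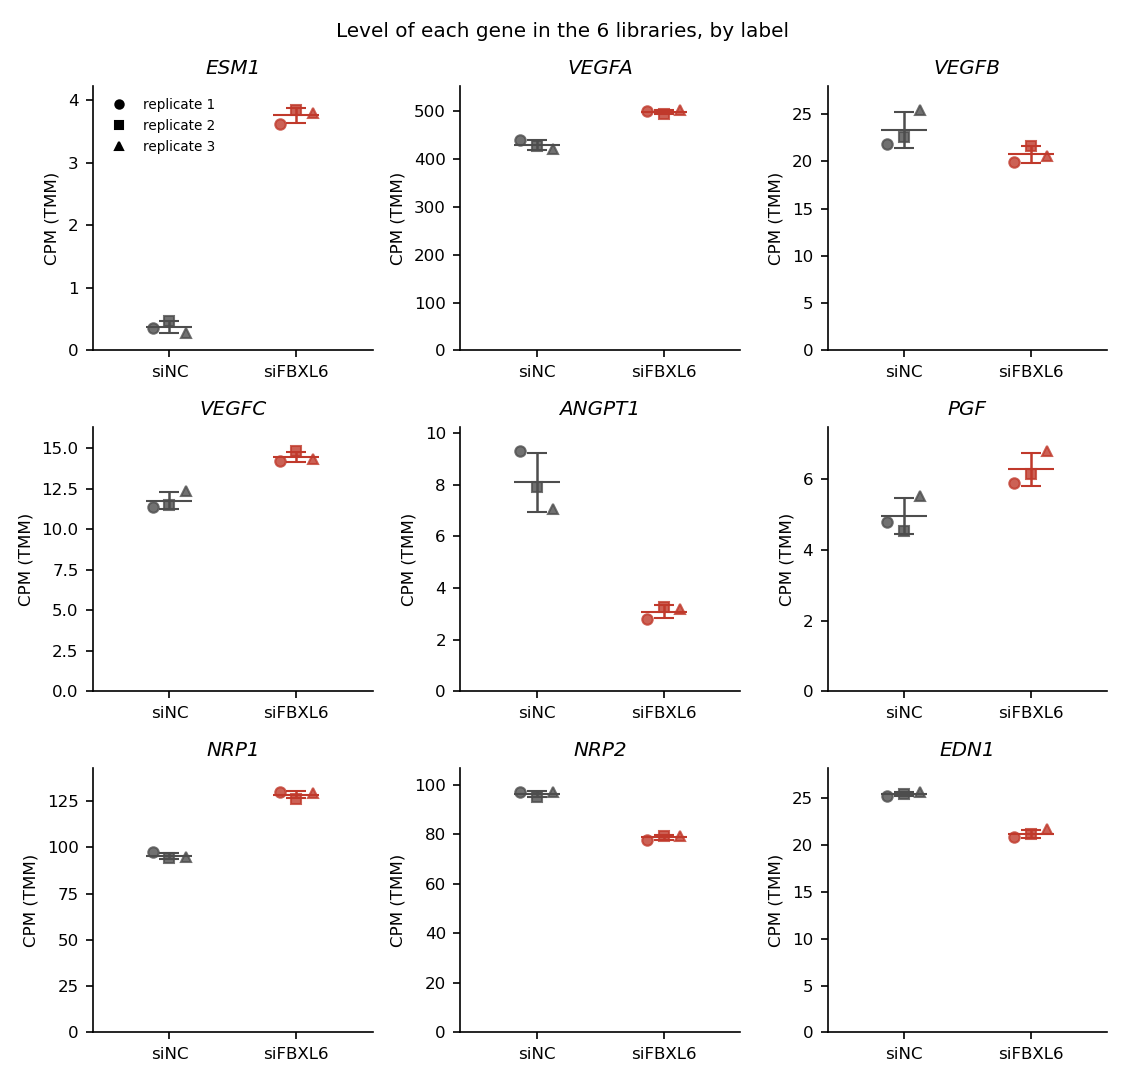
Level of each of the 9 genes in CPM normalized by TMM factors (linear axes from 0), with 1 point for each library, marked by replicate number, and a bar for the mean ± SD of the 3 libraries of a label. The ratio of the means was 10.2 for ESM1, which went from 0.369 to 3.75 CPM, and 0.382 for ANGPT1, which went from 8.08 to 3.09 CPM, while those of the other 7 genes lay between 0.818 and 1.35.

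ANGPT1 fell by more than any other of the 9 genes. It lies at chr8:107249482-107498055 on the minus strand. The siNC libraries held 544, 488 and 405 counts, or 9.30, 7.90 and 7.05 CPM. The siFBXL6 libraries held 170, 198 and 192 counts, or 2.81, 3.28 and 3.19 CPM. The siNC libraries differed among themselves, with a coefficient of variation of 14%, but even the lowest lay above every siFBXL6 library. The mean was 61.8% lower under siFBXL6 (log2 fold change -1.39, SE 0.10), which ranked 86 from the bottom of the genes tested. Per kb of exon, the level of VEGFA was 23.4, 26.7 and 29.5 times that of ANGPT1 under siNC and 88.0, 74.4 and 77.9 times under siFBXL6.

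The neuropilins moved in opposite directions. NRP1, a coreceptor of VEGFA and of the semaphorin SEMA3A, lies at chr10:33177492-33336262 on the minus strand. It was at 97.4, 94.0 and 94.6 CPM under siNC and at 130, 126 and 129 CPM under siFBXL6. NRP2, a coreceptor of VEGFC and of SEMA3F, lies at chr2:205681990-205798133 on the plus strand. It was at 96.9, 94.9 and 97.0 CPM under siNC and at 77.7, 79.3 and 79.3 CPM under siFBXL6. Both pairs of groups were separated by far more than their spread, with coefficients of variation from 1.19% to 1.89%. The log2 fold changes were 0.43 (SE 0.031) for NRP1 and -0.29 (SE 0.031) for NRP2. Per kb of exon, NRP1 stood to NRP2 as 1.19 ± 0.018 under siNC and as 1.97 ± 0.048 under siFBXL6 (SD, n = 3 each).

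EDN1, the gene of endothelin-1, lies at chr6:12290363-12297194 on the plus strand and varied least between replicates under siNC. It stood at 25.2, 25.4 and 25.7 CPM under siNC and at 20.8, 21.2 and 21.7 CPM under siFBXL6. The groups did not overlap, and the mean was 16.6% lower (log2 fold change -0.26, SE 0.048).

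Levels of different genes were compared per kb of the exon length in the table, which joins the exons of all annotated transcripts and so lowers the value of a gene with long alternative exons. Under siNC the order was VEGFA at 29.8 CPM per kb, VEGFB at 15.1, EDN1 at 12.5, NRP1 at 8.27, NRP2 at 6.93, VEGFC at 4.86, ANGPT1 at 1.13, PGF at 0.832 and ESM1 at 0.137. Under siFBXL6 it was VEGFA at 34.6 CPM per kb, VEGFB at 13.4, NRP1 at 11.2, EDN1 at 10.4, VEGFC at 5.98, NRP2 at 5.67, ESM1 at 1.39, PGF at 1.05 and ANGPT1 at 0.434. In neither group did the ranges of neighbours in the order overlap. ESM1 moved from rank 9 to rank 7 and ANGPT1 from rank 7 to rank 9, and the pairs NRP1 with EDN1 and VEGFC with NRP2 traded places. In CPM not divided by length, EDN1 was at rank 4 and VEGFC at rank 6 under both labels, so the trades of these pairs depend on the scale. On that scale the ranges of NRP1 and NRP2 overlapped under siNC, and those of EDN1 and VEGFB under both labels. Small absolute steps on the scale per kb were those between NRP2 at up to 5.71 and VEGFC from 5.88 CPM per kb under siFBXL6, and between PGF at up to 0.929 and ANGPT1 from 0.989 CPM per kb under siNC.

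**Figure D2:**
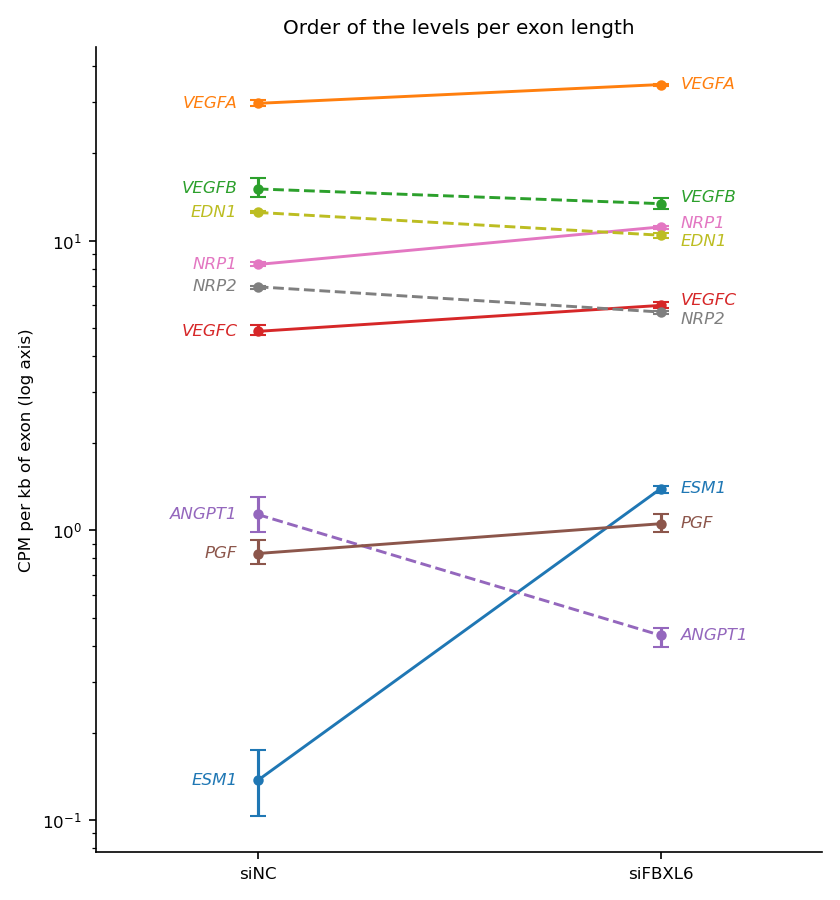
Mean level of each gene in CPM per kb of exon (log axis) under each label, with the range over 3 libraries as the bar. Solid lines join genes that were higher and dashed lines genes that were lower under siFBXL6. ESM1 rose from 0.137 to 1.39 and crossed PGF and ANGPT1.

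The receptors of these ligands were scarce in the cells. FLT1, the receptor of VEGFA, VEGFB and PGF, had 64, 64 and 46 counts under siNC and 78, 79 and 65 under siFBXL6, and KDR, the main signaling receptor of VEGFA, had 58, 58 and 68 and then 90, 66 and 52. Both stood near 1 CPM and neither was called. FLT4, the receptor of VEGFC, had at most 2 counts in a library, TEK, the receptor of ANGPT1, had 4 to 15, and TIE1 had 4 to 16. FLT4 and TIE1 did not pass the filter on low counts, and TEK was tested and not called (log2 fold change -0.41, SE 0.50). Under siNC the level of the coreceptor NRP1 was 8.16 to 8.45 CPM per kb of exon and that of the receptor KDR 0.150 to 0.189 CPM per kb.

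Beside the 9 genes, the list of other VEGF ligands, receptors and coreceptors held 6 genes. Of 4 that were tested, 1 was called (25%, beside 40.2% of all genes tested), and it was lower. GPC1, a heparan sulfate proteoglycan of the cell surface that binds VEGF, had 4035, 4573 and 4000 counts under siNC and 3871, 3653 and 3539 under siFBXL6, which was a log2 fold change of -0.22 (SE 0.037, edgeR adjusted p = 1.19e-05). The list had a median log2 fold change of -0.02, where that of all genes tested was -0.01.

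Of 13 angiopoietin, TIE and angiopoietin-like genes beside ANGPT1, 7 were tested and 3 were called (42.9%, beside 40.2% of all genes tested), 1 higher and 2 lower, with a median log2 fold change of -0.28. ANGPTL4, a secreted inhibitor of lipoprotein lipase, rose from 51, 42 and 48 counts to 186, 186 and 192 (log2 fold change 1.97, SE 0.16, edgeR adjusted p = 4.63e-12). ANGPTL6 was lower, with a log2 fold change of -0.39 (SE 0.097, edgeR adjusted p = 0.00125). PTPRB, the receptor phosphatase that acts on TEK, had a log2 fold change of -0.28 (SE 0.053, edgeR adjusted p = 6.41e-05) without overlap of the groups. ANGPT2, the ligand that can oppose ANGPT1 at TEK, stayed at 20 to 27 counts a library.

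The class 3 semaphorins and plexins, which share the neuropilins as coreceptors, were listed next. Of 12 genes 11 were tested and 7 were called (63.6%, beside 40.2% of all genes tested), 3 higher and 4 lower, with a median log2 fold change of -0.24. PLXNA1, a plexin that pairs with neuropilins, rose by a log2 fold change of 0.34 (SE 0.031, edgeR adjusted p = 7.03e-11), and SEMA3A, a ligand of NRP1, by 0.21 (SE 0.03, edgeR adjusted p = 5.85e-07). SEMA3F, a ligand of NRP2, had a log2 fold change of -0.53 (SE 0.14, edgeR adjusted p = 0.00336), from 150, 154 and 141 counts to 113, 105 and 97. PLXND1, a plexin of vessels, had a log2 fold change of -0.45 (SE 0.045, edgeR adjusted p = 5.3e-10). SEMA3C, which binds both neuropilins and had the highest CPM of the list under siNC, went from 227 to 171 CPM (log2 fold change -0.41, SE 0.03, edgeR adjusted p = 2.05e-13).

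Of 7 endothelin genes beside EDN1, 4 were tested and 2 were called (50%, beside 40.2% of all genes tested), both higher, with a median log2 fold change of -0.03. EDNRA, a receptor of endothelin-1, went from 177, 183 and 157 counts to 314, 286 and 305 (log2 fold change 0.78, SE 0.11, edgeR adjusted p = 2.75e-07). ECE1, the protease that frees endothelin-1 from its precursor, rose by a log2 fold change of 0.30 (SE 0.031, edgeR adjusted p = 5.51e-10). EDN2 and EDN3 had at most 4 counts in any library and EDNRB at most 6. ECE2 and KEL, the other genes tested, had log2 fold changes of -0.39 (SE 0.20) and -0.37 (SE 0.43) and were not called.

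Among 21 other secreted angiogenic factors, 18 were tested and 13 were called (72.2%, beside 40.2% of all genes tested), 7 higher and 6 lower, with a median log2 fold change of 0.12. HBEGF, a heparin-binding ligand of the EGF receptor, went from 97.5 to 217 CPM (log2 fold change 1.15, SE 0.031, edgeR adjusted p = 2.95e-25), and CXCL1, a chemokine for neutrophils, from 54.1 to 107 CPM (log2 fold change 0.98, SE 0.037, edgeR adjusted p = 7.2e-21). PTN, pleiotrophin, was lower, at 3.67 and then 1.80 CPM (log2 fold change -1.03, SE 0.14, edgeR adjusted p = 1.51e-07). CTGF, a matricellular protein now named CCN2, had a log2 fold change of -0.61 (SE 0.082, edgeR adjusted p = 1.56e-07).

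Of 14 genes listed as secreted inhibitors of angiogenesis, among them VASH2, which is rather known to promote it and was called lower, 12 were tested and 8 were called (66.7%, beside 40.2% of all genes tested), 3 higher and 5 lower, with a median log2 fold change of -0.13. ISM1, isthmin, went from 134, 86 and 92 counts to 355, 306 and 269 (log2 fold change 1.54, SE 0.14, edgeR adjusted p = 5.85e-11). TIMP3, an inhibitor of metalloproteinases, rose by a log2 fold change of 0.71 (SE 0.03, edgeR adjusted p = 1.76e-19). SPARC, a matrix protein, had a log2 fold change of -0.79 (SE 0.13, edgeR adjusted p = 8.68e-06) and COL18A1, the collagen whose end is endostatin, -0.42 (SE 0.042, edgeR adjusted p = 5.52e-10).

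VEGFA, EDN1 and ANGPTL4 are known targets of hypoxia-inducible factors. Of 24 hypoxia-inducible factors, regulators and targets, 23 were tested and 16 were called (69.6%, beside 40.2% of all genes tested), 8 higher and 8 lower, with a median log2 fold change of 0.07. NDRG1 went from 182 to 353 CPM (log2 fold change 0.95, SE 0.029, edgeR adjusted p = 1.77e-23), and EGLN3, a prolyl hydroxylase of the factors, rose by 0.57 (SE 0.094, edgeR adjusted p = 7.68e-06) on the log2 scale. CA9, carbonic anhydrase 9, had a log2 fold change of -0.62 (SE 0.16, edgeR adjusted p = 0.00168) and VHL, the ligase subunit that binds the factors, -0.25 (SE 0.03, edgeR adjusted p = 2.39e-08).

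Endocan carries a dermatan sulfate chain, so the enzymes of its assembly were listed too. Of 22 genes 21 were tested and 11 were called (52.4%, beside 40.2% of all genes tested), 8 higher and 3 lower, with a median log2 fold change of 0.09. CHST15, a sulfotransferase of chondroitin and dermatan sulfate, went from 767, 772 and 710 counts to 1216, 1208 and 1259 (log2 fold change 0.68, SE 0.056, edgeR adjusted p = 4.02e-12). XYLT2, which adds the first sugar to the core protein, rose by a log2 fold change of 0.44 (SE 0.034, edgeR adjusted p = 8.05e-13). B4GALT7, which adds the next sugar, had a log2 fold change of -0.47 (SE 0.099, edgeR adjusted p = 0.000222). DSEL, a relative of the dermatan sulfate epimerase, had -0.37 (SE 0.11, edgeR adjusted p = 0.00611), from 4.52 to 3.49 CPM. The epimerase itself, DSE, was called higher, from 131 to 163 CPM (log2 fold change 0.32, SE 0.032, edgeR adjusted p = 3.25e-10).

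**Figure D3:**
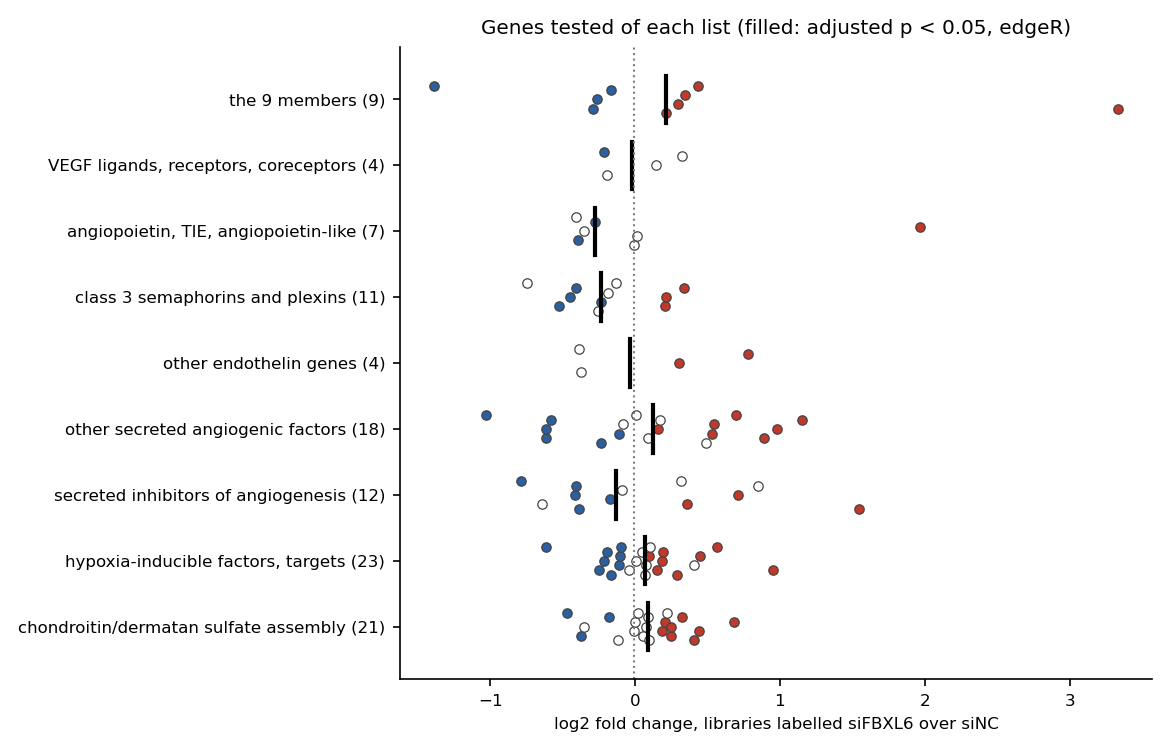
Log2 fold change of each gene tested (x axis, libraries labelled siFBXL6 over siNC), 1 point a gene, among the 9 members and in each of the 8 pathway lists, without the marker lists (y axis, number of genes tested in brackets). Filled points were called, red higher and blue lower, and open points were not. Black bars are the medians of the lists and the dotted line that of all genes tested, at -0.01. Of the genes drawn, ESM1 at 3.33 and ANGPTL4 at 1.97 lie farthest to the right.

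**Figure D4:**
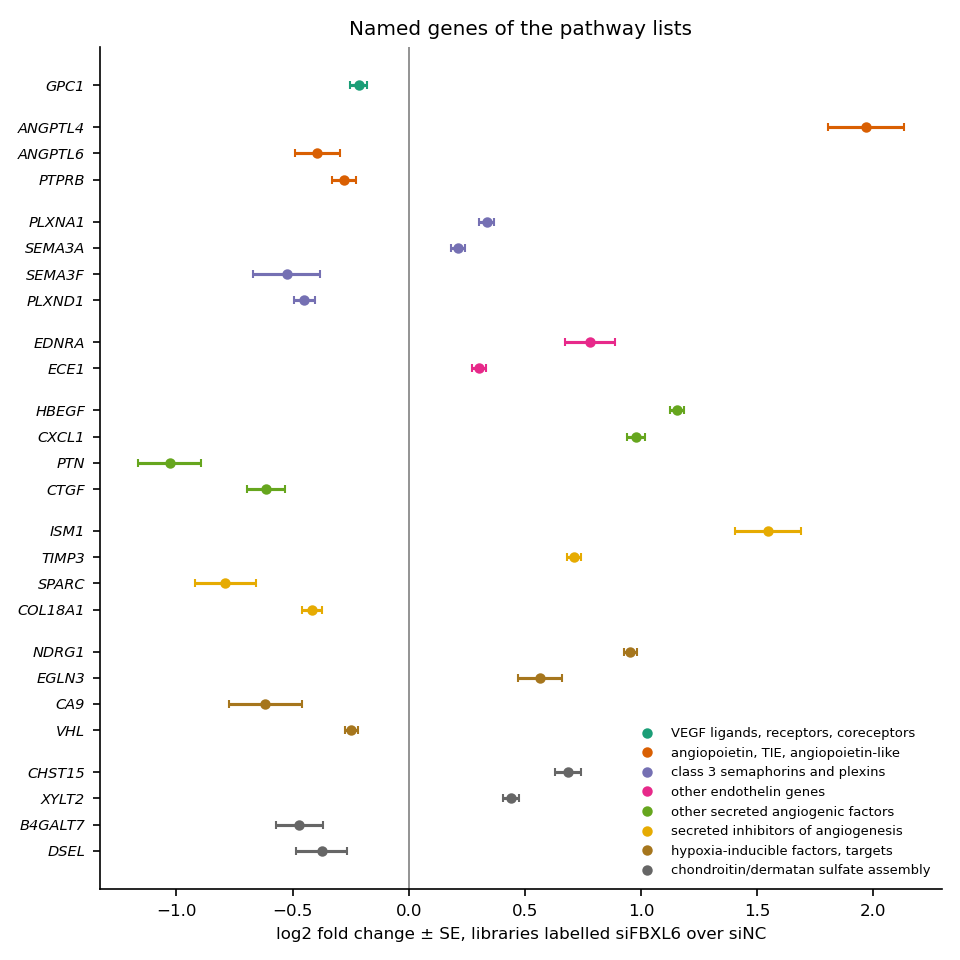
Log2 fold change with its standard error for the called genes with the highest and lowest values of each pathway list, at most 2 each, coloured by list. ANGPTL4 at 1.97, ISM1 at 1.54 and HBEGF at 1.15 are highest, and PTN at -1.03 is lowest.

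The genes whose profiles over the 6 libraries lay nearest to that of ESM1, by the Euclidean distance between centred log2 CPM values among 16192 genes, were CSF3 at 1.00, LINC01291 at 1.24 and IL36G at 1.36. CSF3, a growth factor of granulocytes, went from 143, 168 and 142 counts to 897, 844 and 923. LINC01291, a long noncoding RNA, went from 19, 23 and 30 counts to 142, 155 and 152, and IL36G, a cytokine of epithelia, from 44, 58 and 58 to 261, 296 and 257. All 3 rose less than ESM1, with log2 fold changes of 2.53, 2.61 and 2.32. Nearest to VEGFA were LGALS8 at 0.0228, STS at 0.0292 and C6orf132 at 0.0327, with log2 fold changes of 0.21, 0.21 and 0.23 beside 0.22 for VEGFA.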

How the data were processed

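RNA of T24 cells was sequenced in 6 libraries, 3 labelled siNC and 3 labelled siFBXL6, made with a stranded mRNA kit. The deposited table holds counts per gene, made by the authors with featureCounts (Subread 1.5.1) on GRCh38, without normalization. The study's methods name Trimmomatic and HISAT2 for trimming and alignment, while the submitters' processing notes name fastp 0.23.0 and STAR. The annotation release and the strand setting were not given in the sources used here.

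Low counts were removed by filterByExpr of edgeR with default settings, and the rest were normalized by TMM and tested with the quasi-likelihood test on condition alone, with Benjamini-Hochberg adjustment over all genes tested (edgeR 4.0.16, limma 3.58.1, R 4.3.3). CPM values use the TMM library sizes, and the fit was tested on simulated data. Chi-square values per degree of freedom between libraries of a group ran from 2.76 to 5.80. Counting both mates of a read pair raises such values by itself, so they do not show how far the samples differ. Each library was kept as a sample of its own. The members and the gene lists were chosen with earlier results of these data known. Genes named are the members, FBXL6, ACTB, the receptors FLT1, KDR, FLT4, TEK and TIE1, the 2 highest and 2 lowest log2 fold changes called in each pathway list with every one of at least 1 in size, the most abundant gene of each marker list, and the 3 genes nearest to ESM1 and VEGFA (prior count 2, mean of at least 1 CPM). Other named genes, the counting check and the neighbours on the chromosome were chosen after their values were seen. CCN1, CCN2 and CNMD were found under older symbols. Motifs were searched in windows of 250 bases before to 50 after each start, and for the members not on chromosome 8. Alternatives were DESeq2 1.42.0, other normalizations and filters, the replicate number as a block, and each library left out in turn.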

Additional observations from a re-analysis of the deposited data

How the results depend on the processing

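Under 13 alternatives (DESeq2, other normalizations and filters, the block and each library left out) the log2 fold changes of the 9 members gave 117 values, of which 115 kept their direction and their side of the threshold and 2, both of VEGFB, lost the call with a library left out. ESM1 ranged from 3.17 to 3.55, ANGPT1 from -1.47 to -1.28, VEGFA from 0.19 to 0.23 and NRP1 from 0.41 to 0.45. NRP2 ranged from -0.31 to -0.28, EDN1 from -0.28 to -0.25 and VEGFC from 0.28 to 0.34. PGF ranged from 0.28 to 0.43 and VEGFB from -0.21 to -0.10. All 338 values of the 26 pathway genes named as highest or lowest of their list kept both. FBXL6 was called under none, with values from -0.20 to -0.09 and adjusted p from 0.112 to 0.521. Without division by exon length, ESM1 ranked 8 in place of 7 under siFBXL6, EDN1 and VEGFC kept ranks 4 and 6 under both labels, and the ranges of NRP1 and NRP2 overlapped under siNC.

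Leaving out a library gave 7451 to 8298 genes called, beside 8569 with all 6. Same-numbered libraries did not deviate together. The correlations of their deviations from the group means were -0.0361, 0.0135 and -0.0105 for replicates 1, 2 and 3. These values cannot show whether same-numbered samples were handled together, because a small shared effect could go unseen. With the replicate number as a block, 8408 genes and all 9 members were called. Every count of called genes in the 8 pathway lists stayed within 1.5 times its value. So did those of the marker lists, run after seeing the data, except that 1 endothelial marker in place of 2 was called with at least 10 counts in every library, a filter that ROBO4 does not pass.

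Depth limits ESM1 under siNC, at 16 to 29 counts, and the receptors FLT4 and TIE1, which were not tested, and TEK, which was tested and not called.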

Other observations

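Antisense genes that share exon bases with 3 members had counts that differed between the labels in the direction of the member. RP1-261G23.7, whose 188 bases lie wholly within a VEGFA exon on the other strand, had 6316, 6429 and 5889 counts under siNC and 7679, 7612 and 7700 under siFBXL6. RP11-342D11.2, which shares 561 bases with NRP1, had 1249, 1199 and 1176 and then 1727, 1632 and 1667 counts. AC007362.3, which shares 147 bases with NRP2, had 1082, 1174 and 1096 and then 886, 966 and 927 counts. Their log2 fold changes were 0.28, 0.44 and -0.30, where those of VEGFA, NRP1 and NRP2 were 0.22, 0.43 and -0.29. Since reads were counted for each gene they met, transcripts of the antisense genes and of the members cannot be told apart on the shared bases.

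The nearest tested gene on either side of each member along the chromosome was also read. Of these 18 neighbours 10 were called (55.6%, beside 40.2% of all genes tested), 7 in the direction of the member and 3 against it. GPX8, 137 kb from ESM1, had a log2 fold change of 0.43 (SE 0.045), and DLST, 38.1 kb from PGF, had 0.45 (SE 0.033). RP11-462L8.1, 95.4 kb from NRP1 and at a mean of 0.532 CPM, had the only called change of at least 2-fold, with a log2 fold change of 1.89 (SE 0.33). OXR1, the neighbour of ANGPT1 on the side of the lower coordinate, had -0.01, and EIF3E on the other side 0.14, where ANGPT1 had -1.39.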
